A study of Mus musculus with 32 samples.

Results

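The mitochondrial ribosomal protein genes of mouse colonic progenitor cells were taken as all genes of the table whose symbol begins with Mrpl or Mrps followed by a number. The rule gave 83 of 23517 genes, of which 78 are genes and 5 are pseudogene rows (Mrpl23-ps1, Mrpl27-ps, Mrpl48-ps, Mrps36-ps1 and Mrps36-ps2). The rule used names only and no measured value.

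Mitochondrial ribosomes translate the few proteins that the mitochondrial genome encodes, all of them subunits of the respiratory chain and the ATP synthase. Their rRNAs come from the mitochondrial genome, whereas all their proteins are encoded in the nucleus, made in the cytosol and imported. Part of the proteins have counterparts in bacterial ribosomes and the rest were added in the mitochondrial lineage. In the gut epithelium, the balance between glycolysis and mitochondrial respiration is known to differ between crypt progenitors and mature cells.

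Colonoids, epithelial organoids, were grown from proximal colon crypts of mice of the line Lgr5-EGFP-IRES-CreERT2 and kept in L-WRN medium either untreated or with 250 nM bethanechol (Bch), an agonist of muscarinic acetylcholine receptors, renewed daily for 4 days. EGFP and CreERT2 are expressed from the Lgr5 locus in every group, and Lgr5-EGFP+ cells were sorted for bulk RNA-seq. The 8 mice each gave an untreated and a Bch-treated sample with 2 technical replicates, which makes 32 libraries in 4 groups of 4 mice: BR1-BR4 untreated, BR1-BR4 Bch, BR7-BR10 untreated and BR7-BR10 Bch. Ages are not given in the labels. BR1-BR4 are labelled male, with sorted Lgr5+ cells as the source and the RNeasy Plus Micro kit, whereas BR7-BR10 carry no sex label, with colonic organoids as the source and the RNeasy Mini kit, so sex, source and kit cannot be told apart between the 2 sets. The design text of the series speaks of 4 female and 4 male mice.

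Counts are unique molecular identifiers (UMIs), each standing for 1 captured mRNA end, so levels were not divided by gene length. After technical replicates were added up, the 16 sums held 557512 (BR3 untreated) to 4050342 (BR8 Bch) UMIs. In these sums a gene with 0 UMIs may still hold up to 5.38 and 0.741 CPM (counts scaled to a total of 1000000), which covers counting error only. Most sums came from 3000 sorted cells, with 13114 for untreated BR1, 3504 for Bch-treated BR1, 2361 for untreated BR3 and 2401 for untreated BR9. Of the markers of non-epithelial cells, fibroblast genes (1 of 5 in the table) summed to at most 1.01 CPM, endothelial genes (1 of 3) to at most 2.43 and immune genes (4 of 5) to at most 11.6, against 6894 to 8847 for 6 epithelial genes. Fewer cells of a type and less RNA per cell cannot be told apart in these bulk samples.

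The members lie on 17 chromosomes and 69 of them matched a RefSeq promoter entry, which gave 75 windows of 250 bases before to 50 after a start site (GRCm38.p6). The motifs searched on both strands were the NRF1 motif GCGCATGC, the ETS motif CCGGAAG, the YY1 motif AAGATGGCG and the GC box GGGCGG. NRF1, ETS factors such as GABPA, and YY1 are known regulators of nuclear genes for mitochondrial proteins. The NRF1 motif was present in 10.7% of the member windows and in 2.71% of 32851 windows of all genes, the ETS motif in 34.7% and 8.86%, the YY1 motif in 10.7% and 1.4%, and the GC box in 52% and 35.7%. A match is a description of letters and no evidence of binding.

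The 250 bases before the start are printed for 6 members that the results turn on, chosen after their values were seen. These are the 3 with the smallest p after Bch in BR1-BR4 (Mrps18c, Mrpl17 and Mrpl42), 2 that were lower with Bch in all 4 mice of BR7-BR10 (Mrpl49 and Mrpl39), and Mrpl18, which passed the threshold between the untreated sets. Capitals mark the motifs found, which can overlap, as the GC box and the ETS motif do at the start of the Mrpl17 sequence. The positions are chr5:100798509-100798758 (plus strand), chr7:105811088-105811337 (minus strand), chr10:95501950-95502199 (minus strand), chr19:6057756-6058005 (minus strand), chr16:84735245-84735494 (minus strand) and chr17:12916092-12916341 (minus strand) on GRCm38.p6, each counted back from the start site in RefSeq. By the gene extents of GENCODE M21, which join all transcripts of a gene, the Mrpl42 stretch lies wholly upstream of its gene, those of Mrpl39 and Mrpl18 wholly inside, and those of Mrps18c, Mrpl17 and Mrpl49 partly inside.
Mrps18c: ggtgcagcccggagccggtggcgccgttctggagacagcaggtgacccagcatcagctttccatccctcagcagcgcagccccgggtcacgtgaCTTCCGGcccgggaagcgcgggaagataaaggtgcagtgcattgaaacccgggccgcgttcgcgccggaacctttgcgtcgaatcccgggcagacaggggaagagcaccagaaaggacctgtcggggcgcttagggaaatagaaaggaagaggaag
Mrpl17: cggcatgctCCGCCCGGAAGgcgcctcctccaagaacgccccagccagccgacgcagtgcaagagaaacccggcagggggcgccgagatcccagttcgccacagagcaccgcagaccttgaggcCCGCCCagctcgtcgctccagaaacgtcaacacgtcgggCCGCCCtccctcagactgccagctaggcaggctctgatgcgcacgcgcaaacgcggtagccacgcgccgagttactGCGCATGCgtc
Mrpl42: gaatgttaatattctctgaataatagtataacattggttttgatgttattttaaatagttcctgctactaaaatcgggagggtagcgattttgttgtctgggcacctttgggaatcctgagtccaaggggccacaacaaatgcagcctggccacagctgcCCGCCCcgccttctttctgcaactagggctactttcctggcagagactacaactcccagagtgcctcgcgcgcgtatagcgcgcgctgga
Mrpl49: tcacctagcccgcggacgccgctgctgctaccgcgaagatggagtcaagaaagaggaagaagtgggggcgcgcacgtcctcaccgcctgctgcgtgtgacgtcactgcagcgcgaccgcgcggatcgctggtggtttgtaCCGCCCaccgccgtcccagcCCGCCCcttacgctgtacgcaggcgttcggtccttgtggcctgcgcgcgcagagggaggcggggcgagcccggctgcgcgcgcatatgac
Mrpl39: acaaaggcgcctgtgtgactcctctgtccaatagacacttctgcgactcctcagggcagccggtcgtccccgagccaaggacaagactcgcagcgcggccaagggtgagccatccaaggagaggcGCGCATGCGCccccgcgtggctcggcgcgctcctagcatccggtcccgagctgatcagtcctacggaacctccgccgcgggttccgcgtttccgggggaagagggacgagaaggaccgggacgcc
Mrpl18: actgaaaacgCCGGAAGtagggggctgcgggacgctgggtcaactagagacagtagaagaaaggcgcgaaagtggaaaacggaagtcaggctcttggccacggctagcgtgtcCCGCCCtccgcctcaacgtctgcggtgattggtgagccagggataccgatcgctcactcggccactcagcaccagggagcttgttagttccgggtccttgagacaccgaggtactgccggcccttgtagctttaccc

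Of these 6 sequences, Mrpl17 held an NRF1 motif, an ETS motif and GC boxes, Mrpl39 an NRF1 motif, Mrps18c an ETS motif, Mrpl18 an ETS motif and a GC box, and Mrpl42 and Mrpl49 GC boxes alone. In the 50 bases after the start, which are not printed, Mrpl42 held the YY1 motif and Mrps18c a GC box. Members with an ETS motif had a median log2 fold change after Bch of -0.03 in BR1-BR4 (25 tested) and -0.05 in BR7-BR10, compared with -0.02 and -0.10 for 43 members without it. For the YY1 motif the medians were -0.09 and -0.12 with it (8 members) and -0.02 and -0.07 without it (60 members). For the NRF1 motif they were 0.01 and -0.06 with it (8 members) and -0.03 and -0.07 without it, and for the GC box -0.03 and -0.08 with it (34 members) and -0.02 and -0.07 without it (34 members). These are descriptions without a test.

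Mitochondrial ribosomal protein genes were abundant in untreated cells and had a similar order of level in both sets. Together they held 13781 to 15775 CPM in untreated BR1-BR4 and 14490 to 16527 CPM in untreated BR7-BR10 (UMIs of all members over all UMIs, without TMM). Of the 78 genes, 56 had a mean untreated level over 100 CPM, and the median was 152 CPM. Across the 78 genes, the mean untreated levels of the 2 sets had a Spearman correlation of 0.985, which compares genes and not independent replicates.

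The highest member was Mrpl42, a large-subunit protein without a bacterial counterpart, at 655 ± 109 CPM (SD over 8 untreated mice). It was followed by Mrps14, a small-subunit protein with a bacterial counterpart, at 625 ± 77.2 CPM, and by the large-subunit genes Mrpl52 at 544 ± 62.0, Mrpl33 at 523 ± 118 and Mrpl28 at 489 ± 68.0 CPM. The gap between Mrps14 and Mrpl52 was larger than the SD of either gene, and the other neighbours in this order differed by less than an SD of either. The gaps were not tested. The 5 highest genes held 18.7% of the summed level.

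Mrpl53 (0.076 CPM) and 4 pseudogene rows, Mrps36-ps1 the highest of them at 3.78 ± 2.10 CPM, lay lowest. Among the members tested in both sets the lowest were Mrps18b at 12.8 ± 4.18 CPM, Mrpl23-ps1 at 17.2 ± 5.49, Mrps2 at 23.8 ± 4.89, Mrpl23 at 29.8 ± 4.63 and Mrps36 at 32.6 ± 11.1 CPM. Mrps18b, Mrps18a and Mrps18c are 3 related proteins that occupy different places in the ribosome, and Mrps18c had the highest level of them in the plot of levels. Mrps36 has a ribosomal symbol but is now known as a component of the 2-oxoglutarate dehydrogenase complex.

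By class, the medians of the mean untreated level were 180 CPM for 29 large-subunit genes with a bacterial counterpart, 164 CPM for 22 large-subunit genes specific to mitochondria, 166 CPM for 16 small-subunit genes with a bacterial counterpart and 83.8 CPM for 10 small-subunit genes specific to mitochondria. Classes follow the position of the protein in the ribosome, so Mrps30 and Mrps18a count with the large subunit. The summed level of large-subunit genes was 2.28 to 2.45 times that of small-subunit genes in untreated BR1-BR4 and 2.41 to 2.51 times in untreated BR7-BR10. After Bch the ratio was 2.30 to 2.42 and 2.30 to 2.49.

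**Figure D1:**
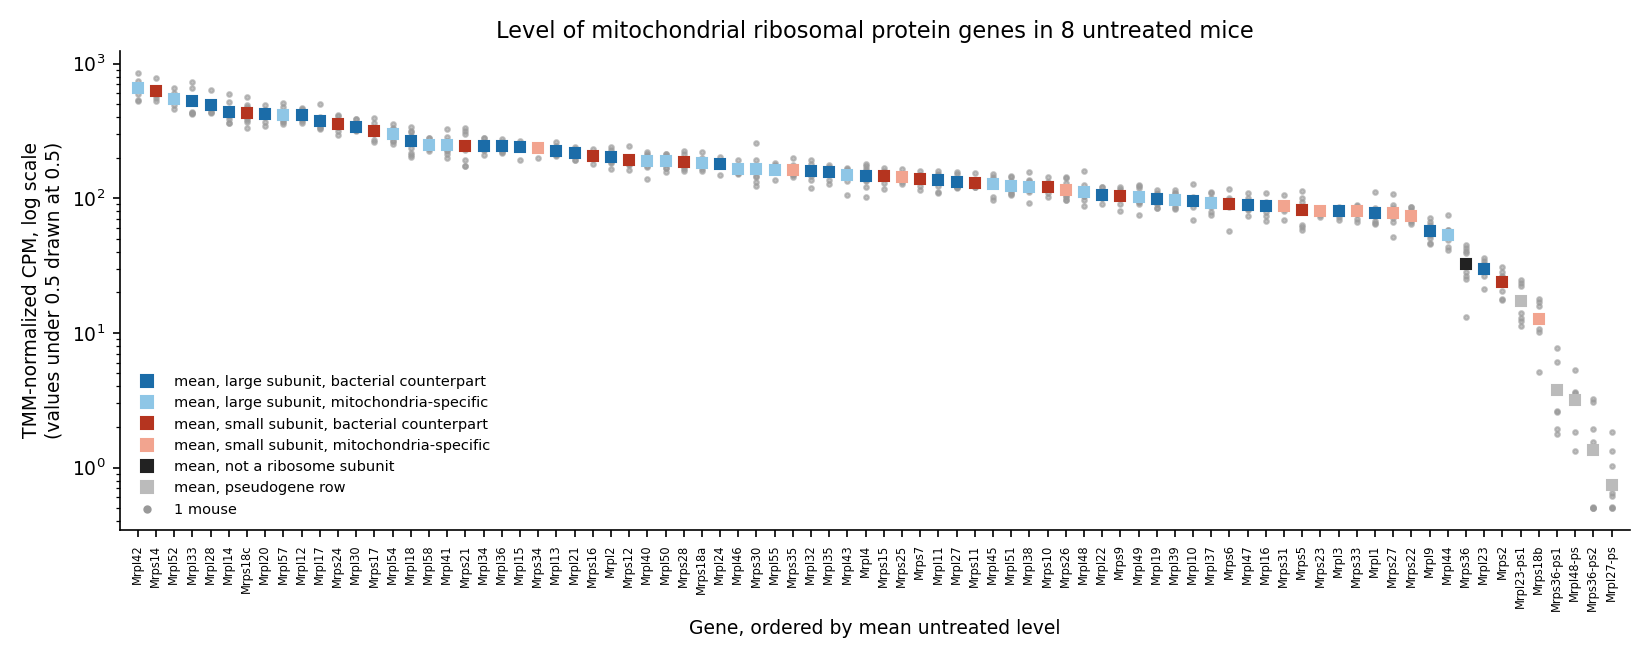
Level of each member in TMM-normalized CPM on a log axis, with grey points for the 8 untreated mice and squares for their mean, coloured by class. Mrpl42 is highest at 655 CPM, the 4 lowest squares are pseudogene rows, and Mrpl53, with 2 UMIs in all libraries, is not drawn.

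Several genes have end sequences that other genes share, which limits what their UMIs can tell. Sequence words of 50 bases from the last 500 bases of their transcripts were compared with all transcripts. Of 78 genes, 49 shared no word with another gene, 15 shared over 10% and 2 shared over 50%. Mrpl23, a protein at the exit of the peptide tunnel, shared 99.6% of its words with its pseudogene Mrpl23-ps1. Mrpl53 shared all of them with Gm42688, which overlaps it on the same strand, and Mrpl53 held 2 UMIs over all libraries and Gm42688 held 1. Mrps36 shared 35.4%, with its pseudogenes and Gm7258, Mrpl22 shared 49.2%, Mrps18c 16.8% and Mrpl42 17.9%. The ends of 11 genes overlap another gene, and whether counting used the strand is not given in the sources used here.

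Mrpl23 also differed between technical replicates. It held 180 UMIs in the 16 libraries of technical replicate 1 and 798 in those of technical replicate 2, a 4.04-fold difference relative to all UMIs. The level was higher in technical replicate 2 in 16 of 16 pairs, with 2 to 21 UMIs per library in the first and 10 to 88 in the second. Among the other 77 members with at least 200 UMIs, the ratio of technical replicate 2 to 1 lay between 0.768 (Mrpl23-ps1) and 1.07 (Mrps36). The cause of the difference was not tested, and every Mrpl23 value here sums both replicates.

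In BR1-BR4, no member passed the threshold after Bch, and 34 of 78 tested members had a positive and 44 a negative fold change. The edgeR quasi-likelihood test with the mouse as a block called 0 members at an adjusted p of 0.05, while 2 of 9509 tested genes (0.021%) passed. DESeq2 also called 0 members, while 14 of 9509 genes passed. It gave no adjusted p for some members, among them Mrpl9, Mrps35, Mrps2, Mrpl4, Mrpl43 and Mrps30, so it could not call these. The median log2 fold change of the members was -0.02, and that of all tested genes was 0.00. The changes were small, with 70 of 78 members within 0.25 of 0 on the log2 scale and a median standard error of 0.11. Mrpl53 and 4 pseudogene rows did not pass the filter on low counts. Of 4 tested colonocyte markers 3 had a negative fold change in BR1-BR4, with a median of -0.29 and 0 past the adjusted threshold, and their part in the values of the members was not tested.

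At an unadjusted p of 0.05, 7 of 78 members were lower with Bch and 0 higher, against 3.26% and 4.46% of all tested genes. The 7 members were Mrps18c, Mrpl17, Mrpl42, Mrps14, Mrps30, Mrps15 and Mrps11, and 4 of them are small-subunit proteins with bacterial counterparts. None of the 7 passed the adjustment, and the values below describe them.

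Mrps18c, a small-subunit protein, had 395, 407, 564 and 330 CPM in untreated BR1, BR2, BR3 and BR4 and 369, 289, 319 and 332 CPM after Bch. BR1, BR2 and BR3 were lower with Bch, BR3 by the most, and the groups overlapped. The log2 fold change was -0.34 with a standard error of 0.11, and the adjusted p by the edgeR quasi-likelihood test was 0.272. Without BR3 the log2 fold change was -0.19.

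Mrpl17, a large-subunit protein with a bacterial counterpart, had 329, 374, 504 and 334 CPM in the untreated mice and 316, 315, 328 and 288 CPM after Bch. All 4 mice were lower with Bch, and the lowest untreated value lay just above the highest Bch value. The log2 fold change was -0.28 with a standard error of 0.10 and an adjusted p by edgeR of 0.359, and it was -0.17 without BR3.

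Mrpl42 had 525, 597, 858 and 534 CPM in the untreated mice and 524, 475, 495 and 518 CPM after Bch. BR1 and BR4 had nearly equal values with and without Bch, whereas BR3 had the highest value of any member untreated and one within the range of the other Bch samples after Bch. The log2 fold change was -0.29 with a standard error of 0.10 and an adjusted p by edgeR of 0.435, and it was -0.12 without BR3.

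Mrps14 had 626, 638, 782 and 532 CPM untreated and 569, 536, 563 and 493 CPM after Bch, lower in all 4 mice with overlapping groups. Its log2 fold change was -0.24 with a standard error of 0.09 and an adjusted p by edgeR of 0.466. Mrps30, found in the large subunit despite its name, had 161, 192, 257 and 123 CPM untreated and 146, 150, 131 and 138 CPM after Bch. Of the 4 mice 3 were lower, and the log2 fold change of -0.31 became -0.12 without BR3 and -0.47 without BR4.

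The untreated BR3 sum, which has the fewest UMIs of all 16 and came from 2361 cells, held the highest value of each of these 5 genes. Without BR3, 1 member in place of 7 was lower at an unadjusted p of 0.05 and the median log2 fold change was 0.00. Without BR2, 3 members were lower at that level. Without BR1, whose sums came from 13114 and 3504 cells, 9 members were lower at that level and the median was -0.04. How many of all genes were lower at that level was not counted with a mouse left out. No member passed the adjusted threshold with any mouse left out. Over all tested genes, 0 of 9624, 0 of 9560, 5 of 9578 and 19 of 9303 passed without BR1, BR2, BR3 and BR4.

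By direction alone, 10 of 78 members were lower with Bch in all 4 mice of BR1-BR4 and 3 were higher, against 6.86% and 8.22% of all tested genes. The 10 were Mrpl42, Mrps14, Mrpl17, Mrpl34, Mrpl13, Mrpl46, Mrpl55, Mrps15, Mrps25 and Mrps11. In 4 of them (Mrpl42, Mrpl17, Mrpl55 and Mrps11) every Bch value lay below every untreated value, against 1.35% of all tested genes.

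The 3 members that were higher in all 4 mice were Mrps35, Mrpl9 and Mrps2. Mrpl9, a large-subunit protein with a bacterial counterpart, had 58.0, 53.5, 45.8 and 67.1 CPM untreated and 61.9, 72.2, 76.7 and 69.4 CPM after Bch. The difference was largest in BR3 and the groups overlapped, at a log2 fold change of 0.28, a standard error of 0.15 and an adjusted p by edgeR of 0.702. Mrps35, a small-subunit protein specific to mitochondria, had a log2 fold change of 0.17 ± 0.10 (standard error) and Mrps2, at the low end of the levels, one of 0.37 ± 0.23. Mrpl4 (0.15 ± 0.11) and Mrpl43 (0.14 ± 0.11), the next by p, were higher in 3 of 4 mice each. Without BR3 their log2 fold changes were 0.061 and 0.075, without BR2 0.24 and 0.094, and that of Mrpl43 was 0.27 without BR4.

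In BR7-BR10, the members leaned to lower values after Bch, but none passed the threshold. Of 79 tested members 67 had a negative and 12 a positive log2 fold change, with a median of -0.07, whereas the median of all 9515 tested genes was 0.00 and 49.5% of them had a positive one. The split was 55 to 24 without BR7 and without BR9, and the median was -0.04 without BR9 and -0.12 without BR10. With technical replicate 2 alone the split was 57 to 21 and the median -0.04. The edgeR quasi-likelihood test called 0 members, and 0% of all tested genes passed at the adjusted threshold. DESeq2 called 0 members and 0 of 9515 genes as well. At an unadjusted p of 0.05, 2 members were lower and 0 higher, against 1.3% and 2.48% of all tested genes. A total of 72 members lay within 0.25 of 0 on the log2 scale, and the median standard error was 0.14. In the same comparison, 6 of 7 goblet markers had a positive fold change with a median of 0.21 and 0 past the adjusted threshold, and their summed level was 3483 to 9066 CPM untreated and 5192 to 14067 CPM after Bch. The part of this in the values of the members was not tested.

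Mrpl49, a large-subunit protein specific to mitochondria, had 98.2, 119, 124 and 123 CPM in untreated BR7, BR8, BR9 and BR10 and 73.9, 87.1, 109 and 103 CPM after Bch. All 4 mice were lower with Bch and the groups overlapped. The log2 fold change was -0.32 with a standard error of 0.15 and an adjusted p by edgeR of 0.999. In BR1-BR4 the same gene had 93.5, 93.1, 89.9 and 75.4 CPM untreated and 114, 75.2, 84.8 and 103 CPM after Bch, higher in 2 mice and lower in 2.

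Mrpl50, of the same class, had 213, 213, 207 and 192 CPM untreated and 203, 150, 133 and 202 CPM after Bch. BR8 and BR9 differed the most and BR10 was slightly higher, at a log2 fold change of -0.28 and a standard error of 0.14. The next by p were Mrps27, a small-subunit protein of the pentatricopeptide repeat family, at -0.33 ± 0.16 (standard error), Mrpl39 at -0.29 ± 0.15 and Mrpl16 at -0.25 ± 0.16. Without BR9 the log2 fold change of Mrpl50 was -0.17, and that of Mrps27 was -0.21 without BR8 and without BR10.

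Mrpl39, a large-subunit protein specific to mitochondria, had 83.4, 88.0, 110 and 96.7 CPM untreated and 78.1, 76.0, 84.5 and 71.4 CPM after Bch, lower in all 4 mice. In all, 4 members were lower in every mouse of BR7-BR10 (Mrpl42, Mrpl18, Mrpl49 and Mrpl39) and 0 were higher, against 5.54% and 5.84% of all tested genes. Without BR10, 9 members in place of 2 were lower at an unadjusted p of 0.05, and without BR8 0 were, but the share of all genes was not counted in these fits. In 0 members did every Bch value lie below every untreated value, against 0.904% of all tested genes.

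The members with the smallest p among those with a positive fold change in BR7-BR10 were Mrpl23-ps1 (0.36 ± 0.28, standard error), Mrps18b (0.30 ± 0.32), Mrpl55 (0.10 ± 0.14), Mrpl22 (0.10 ± 0.15) and Mrpl9 (0.11 ± 0.18). The first and second are among the lowest of the tested members. Mrpl23-ps1 had 0.0093 without BR10 and 0.62 without BR7, and Mrps18b 0.0045 without BR9 and 0.54 without BR7. Mrpl55 and Mrpl22 turned negative without BR7 (-0.014 and -0.029) and Mrpl9 without BR8 (-0.073).

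**Figure D2:**
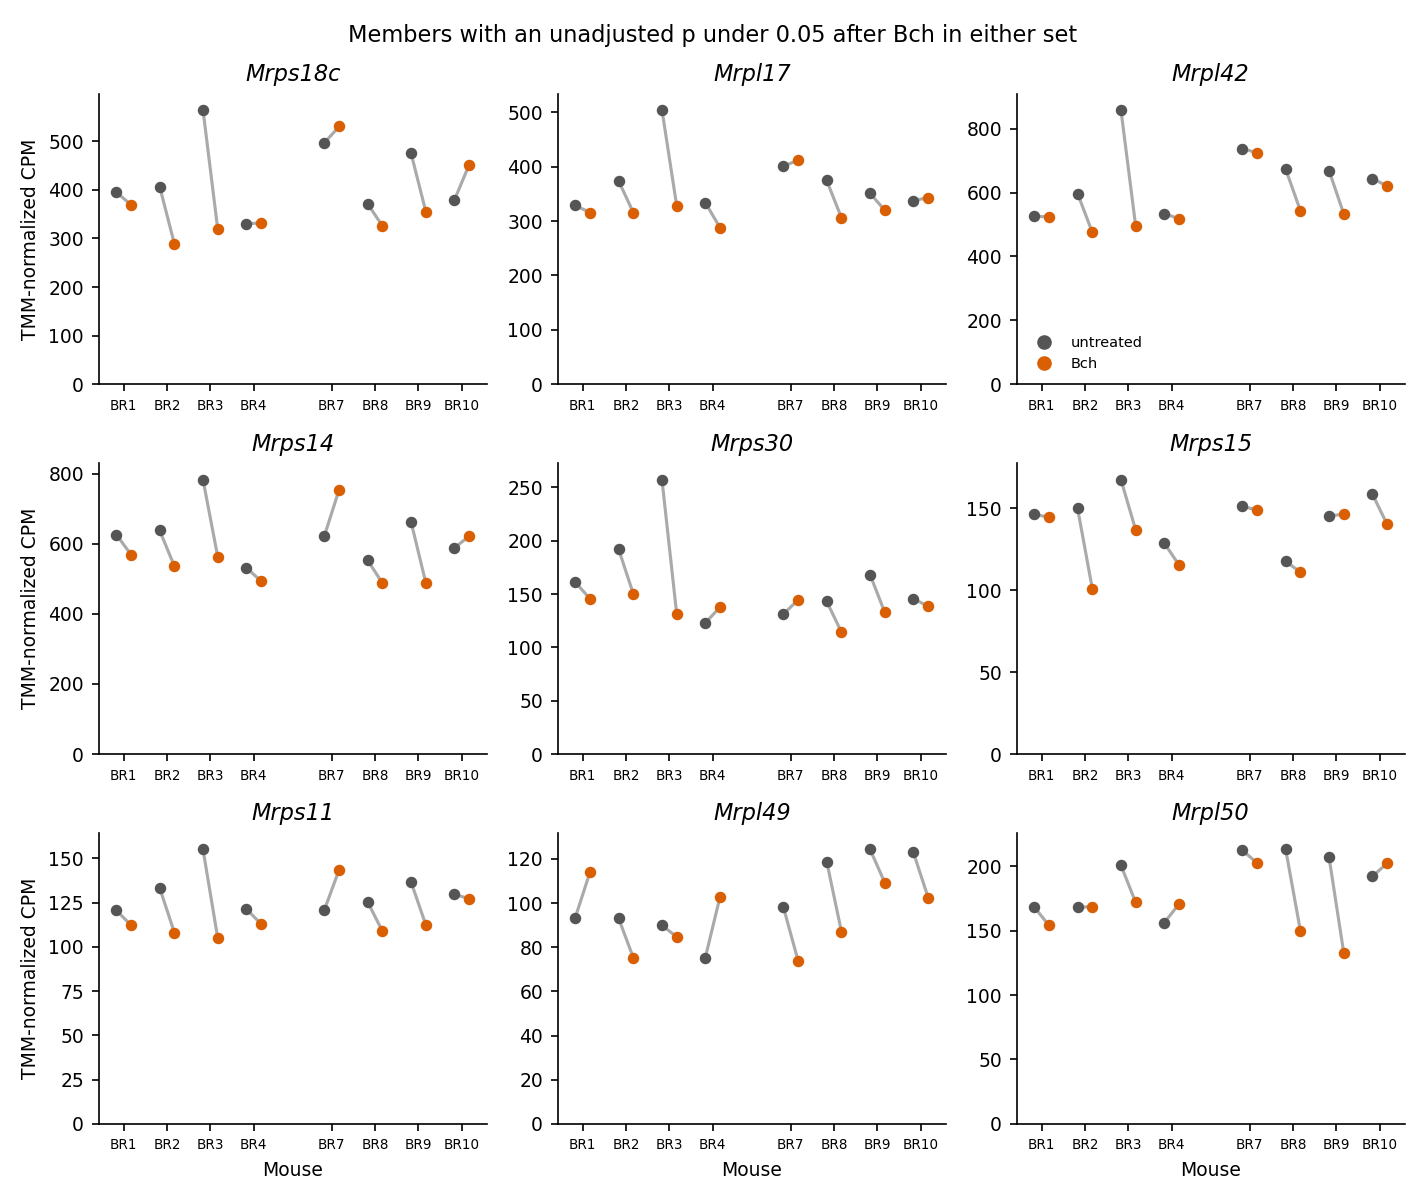
TMM-normalized CPM of the 9 members with an unadjusted p under 0.05 after Bch in BR1-BR4 (Mrps18c to Mrps11) or BR7-BR10 (Mrpl49 and Mrpl50), with 1 line per mouse from untreated (grey) to Bch (orange). The untreated BR3 point is the highest untreated BR1-BR4 point in each of the first 7 panels.

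By class, the members after Bch are described by their medians, whose differences were not tested. In BR7-BR10 the median log2 fold change was -0.10 for large-subunit genes with a bacterial counterpart (26 of 29 negative), -0.09 for large-subunit genes specific to mitochondria (18 of 21), -0.06 for small-subunit genes with a bacterial counterpart (16 of 16) and -0.01 for small-subunit genes specific to mitochondria (6 of 10). In BR1-BR4 the same medians were -0.02, -0.03, 0.02 and -0.02. No class held a member past the adjusted threshold.

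**Figure D3:**
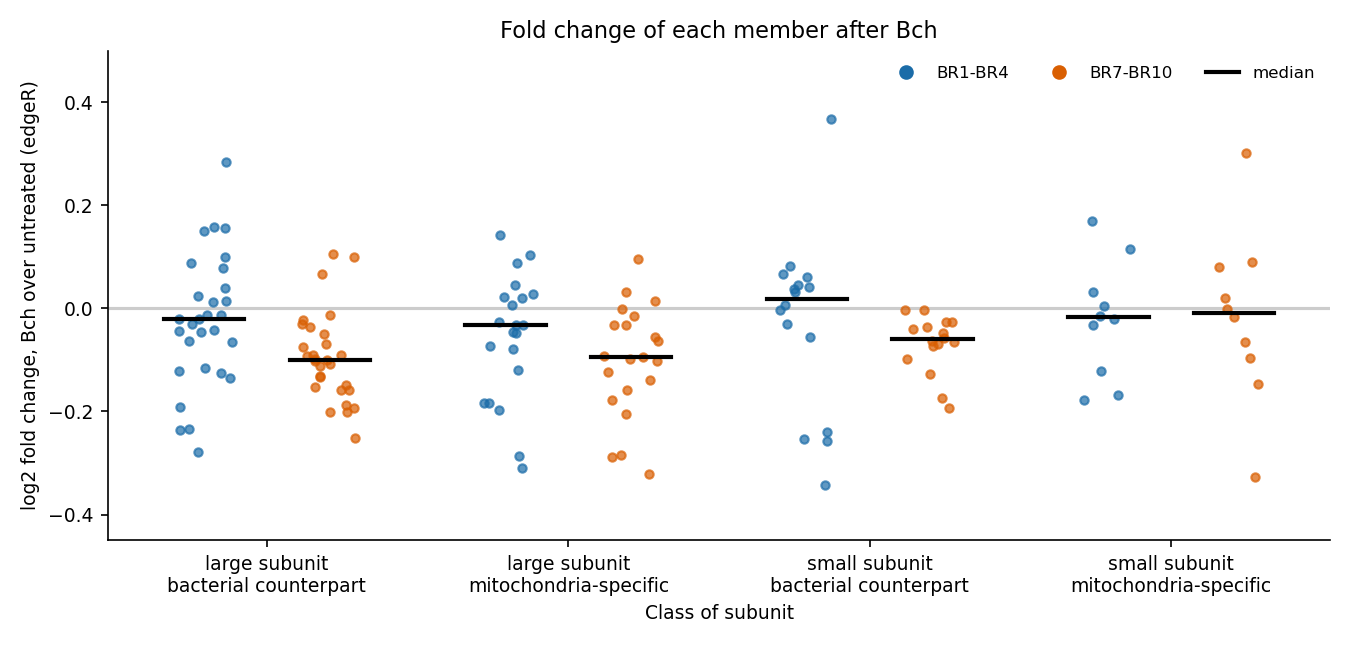
Log2 fold change after Bch of each tested member by class of subunit, with a point per gene for BR1-BR4 (blue) and BR7-BR10 (orange) and a bar for the median. In the class of small-subunit genes with a bacterial counterpart all 16 orange points lie below 0, while the blue points reach from -0.34 to 0.37.

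Single members with known special roles had fold changes within about a standard error of 0. Mrpl12, a protein of the stalk that receives translation factors, had a log2 fold change of -0.02 ± 0.09 (standard error) in BR1-BR4 and -0.07 ± 0.14 in BR7-BR10. Mrpl45, which anchors the ribosome at the inner membrane, had 0.02 ± 0.11 and 0.01 ± 0.14. Mrpl58, a peptidyl-tRNA hydrolase built into the large subunit, had -0.07 ± 0.10 and -0.01 ± 0.13. Mrps36 had 0.19 ± 0.23 and -0.15 ± 0.19.

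The 2 sets gave the same sign for 41 of 78 members (52.6%), compared with 52.4% of all genes tested in both. Of the members, 37 were negative in both sets, 4 positive in both, 30 positive in BR1-BR4 and negative in BR7-BR10, and 7 the other way. One member, Mrpl42, was lower with Bch in all 8 mice and 0 were higher in all 8. The share of all genes with such a pattern was not counted, so this count cannot be judged against it. In BR1 the values of Mrpl42 were nearly equal, at 525 CPM untreated and 524 CPM after Bch. In BR7-BR10 Mrpl42 had 737, 673, 669 and 643 CPM untreated and 724, 543, 533 and 621 CPM after Bch, with the smallest differences in BR7 and BR10.

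The difference in response between the sets was tested as an interaction over all 16 sums. It passed the adjusted threshold for 0 members and for 0% of 10280 tested genes. At an unadjusted p of 0.05, 3 members had a lower response in BR7-BR10 (Mrpl49, Mrpl16 and Mrpl4), against 1.97% of all genes, and 0 a higher one, against 2.41%. The count of lower responses was 0 without BR4 or BR7 and with DESeq2, 1 without BR1, BR3 or BR8, and 4 without BR10. Mrpl16, a large-subunit protein with a bacterial counterpart, had an interaction of -0.41 ± 0.20 (standard error), which combines 0.16 in BR1-BR4 with -0.25 in BR7-BR10. When all 8 mice were fitted together, 0 members and 0% of all tested genes passed, and 5 members (Mrpl42, Mrps18c, Mrpl17, Mrps30 and Mrps27) were lower at an unadjusted p of 0.05, against 2.27% of all genes. In that fit 14 members were lower at this level without BR10, 2 without BR8 and 1 without BR3. For these alternative fits, and those of the interaction, the share of all genes at this level was not counted. Their counts show only how far the number of members moved.

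The summed level of the members, as CPM of all UMIs without TMM, was lower with Bch in each of the 8 mice. In untreated BR1, BR2, BR3 and BR4 it was 14760.4, 15294, 15775 and 13781, and after Bch 13968, 13637, 13831 and 13655. The difference was smallest in BR4 (-0.914%) and largest in BR3 (-12.3%), and the untreated BR4 value lay within the range of the Bch values. The log2 ratio was -0.11 ± 0.08 (SD, n = 4).

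In untreated BR7, BR8, BR9 and BR10 the summed level was 15164, 14490, 16527 and 15751, and after Bch 14125, 14004, 14947 and 15362. The groups overlapped, and the log2 ratio was -0.08 ± 0.05 (SD, n = 4). Large-subunit and small-subunit genes were each lower with Bch in 8 of 8 mice, with mean log2 ratios of -0.11 and -0.12 in BR1-BR4 and -0.09 and -0.07 in BR7-BR10. The small-subunit sum of BR4 was nearly equal, at 3982 CPM untreated and 3980 CPM after Bch. Both subunit sums are scaled to the same total. No p is given for a sum over members.

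The size of this difference, and its direction in single mice, depended on the scale. Per TMM-effective library size, which corrects for a shift in composition, the mean log2 ratio of the sum was -0.07 in BR1-BR4 and -0.09 in BR7-BR10, and 3 of 4 mice were lower in each set. The median log2 ratio over members on this scale was 0.05, -0.08, -0.08 and -0.01 in BR1 to BR4 and -0.05, -0.16, -0.17 and 0.08 in BR7 to BR10, so BR1 and BR10 lay above 0.

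Cytosolic ribosomal protein genes had mostly positive fold changes in BR1-BR4. Their share of all UMIs was 13.7% to 17.8% in untreated and 16.1% to 17.6% in Bch-treated BR1-BR4, and 13.9% to 17.0% and 14.1% to 17.3% in BR7-BR10. In BR1-BR4, 80 of 86 of them had a positive fold change with a median of 0.31, and 67 had an unadjusted p under 0.05, although 0 passed the adjusted threshold. In BR7-BR10 the split was 43 to 43 with a median of 0.00. The part of these genes in the summed level of the mitochondrial ribosomal protein genes was not tested, but with cytosolic ribosomal protein and mitochondrial genes left out of the total their mean log2 ratio was -0.07 in BR1-BR4 (4 of 4 mice lower) and -0.07 in BR7-BR10 (3 of 4).

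**Figure D4:**
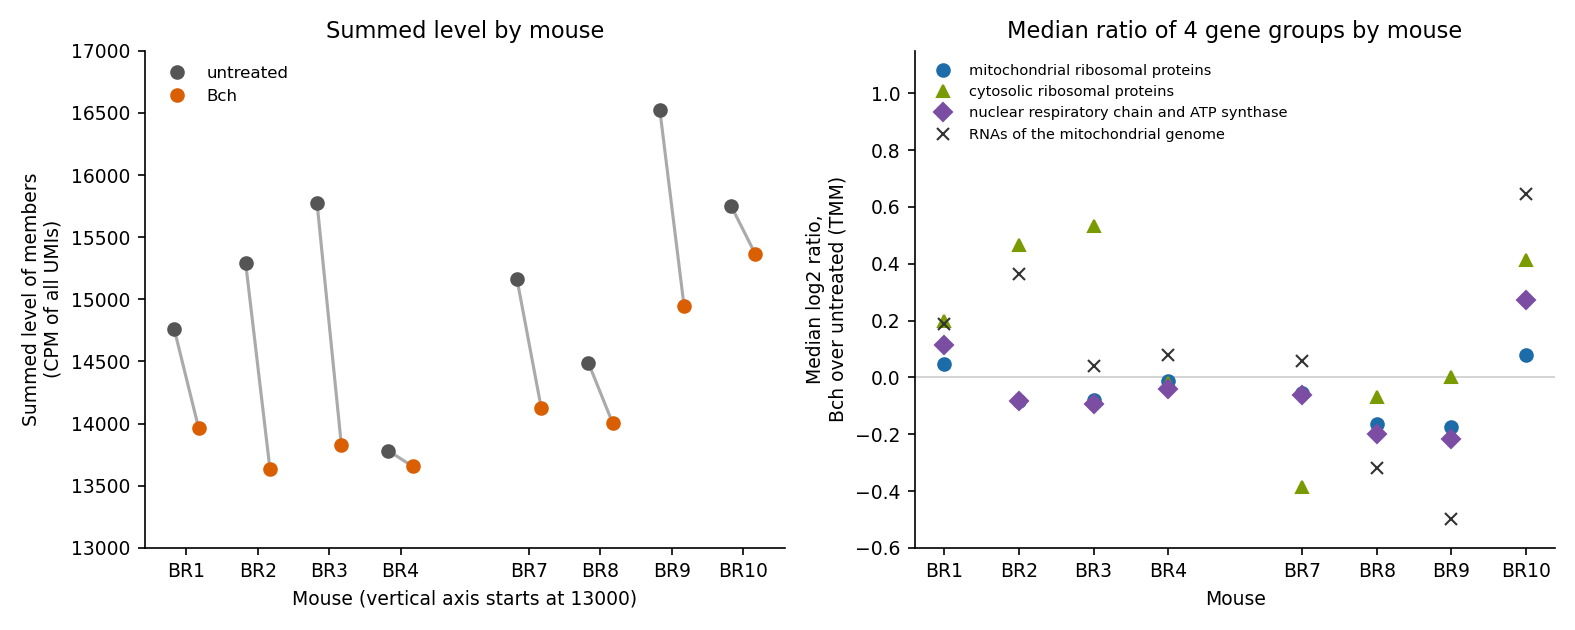
Left, summed level of all 83 members in CPM of all UMIs, with grey for untreated and orange for Bch and a line per mouse, lower with Bch in 8 of 8 mice. Right, median log2 ratio of Bch over untreated in each mouse for 4 gene groups, where the mitochondrial ribosomal proteins range from -0.17 to 0.08.

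Nuclear genes of the respiratory chain and the ATP synthase had medians close to those of the members. In BR7-BR10, 69 of 80 were negative with a median log2 fold change of -0.06, and in BR1-BR4, 52 of 80 with a median of -0.03, and 0 passed the adjusted threshold in either set. In single mice their median was -0.22 in BR9 and 0.27 in BR10, and that of the members -0.17 and 0.08. RNAs of the mitochondrial genome varied more, from -0.50 in BR9 to 0.64 in BR10 on the same scale.

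Among 13 mitochondrial rRNAs and mRNAs in the table, 10 were tested and all 10 had a positive fold change in BR1-BR4, with a median of 0.18 and 0 past the adjusted threshold. The smallest p was that of mt-Nd4, a subunit of complex I, with 2417 ± 916 CPM untreated and 3339 ± 1144 after Bch (SD, n = 4), higher in 4 of 4 mice. Its log2 fold change was 0.45 with a standard error of 0.11 and an adjusted p by edgeR of 0.116. The next was mt-Nd3, also of complex I, at 0.67 ± 0.18 (standard error). In BR7-BR10, 5 were positive and 5 negative, and mt-Rnr1, the small rRNA of the mitochondrial ribosome, had the smallest p with 0.27 ± 0.20.

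Proteins of the mitochondrial ribosome that carry other symbols had small fold changes too. All 5 were tested in both sets and 0 passed the threshold. Chchd1, a small-subunit protein, had 440 ± 40.2 CPM untreated and 388 ± 13.0 after Bch in BR1-BR4 (SD, n = 4), lower in 4 of 4 mice, at a log2 fold change of -0.17 and an adjusted p by edgeR of 0.689. In BR7-BR10 it had -0.11 ± 0.15 (standard error). Dap3, a GTP-binding small-subunit protein, had 0.15 ± 0.11 in BR1-BR4 and -0.10 ± 0.14 in BR7-BR10.

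Of the factors that assemble the mitochondrial ribosome, 30 were tested in each set, and 16 were positive in BR1-BR4 and 8 in BR7-BR10. None passed the adjusted threshold. Mettl17, an assembly factor of the small subunit, had 22.9 ± 9.31 CPM untreated and 14.3 ± 4.05 after Bch in BR7-BR10 (SD, n = 4), lower in 4 of 4 mice, at a log2 fold change of -0.63 and an adjusted p by edgeR of 0.999. Grsf1, an RNA-binding protein of mitochondrial RNA granules, had 0.44 ± 0.22 (standard error) there. In BR1-BR4 the smallest p were those of Mpv17l2 (0.15 ± 0.11) and Rpusd3 (-0.39 ± 0.32).

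Of 20 tested translation factors of mitochondria, 13 were positive in BR1-BR4 and 10 in BR7-BR10, and 0 passed. Oxa1l, which inserts new proteins into the inner membrane, had 73.6 ± 12.9 CPM untreated and 87.4 ± 13.1 after Bch in BR1-BR4 (SD, n = 4), higher in 4 of 4 mice, at a log2 fold change of 0.26 and an adjusted p by edgeR of 0.671. Qrsl1, a subunit of the enzyme that makes mitochondrial glutaminyl-tRNA, had -0.59 ± 0.30 (standard error). In BR7-BR10 the release factor Mtrf1 had 0.79 ± 0.33 and Lrpprc, which stabilizes mitochondrial mRNAs, 0.64 ± 0.29.

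Genes for mitochondrial transcription and mtDNA upkeep (10 tested in BR1-BR4, 9 in BR7-BR10) and regulators of nuclear mitochondrial genes (9 and 10 tested) also held 0 genes past the threshold. Tfb2m, a mitochondrial transcription factor, had 0.40 ± 0.26 (standard error) in BR1-BR4 and 0.26 ± 0.28 in BR7-BR10. Polg, the mtDNA polymerase, had 0.53 ± 0.35 in BR1-BR4 and its accessory subunit Polg2 0.42 ± 0.44 in BR7-BR10. Ppargc1b, a coactivator of mitochondrial genes, had 7.88 ± 3.39 CPM untreated and 3.61 ± 1.62 after Bch in BR1-BR4 (SD, n = 4), lower in 4 of 4 mice, at a log2 fold change of -1.08 and an adjusted p by edgeR of 0.559. In BR7-BR10 it had 0.35 ± 0.37 (standard error). Esrra, a nuclear receptor that acts with it, had -0.33 ± 0.16 and -0.15 ± 0.17.

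Between untreated sets, members were mostly higher in BR7-BR10, and 3 passed the threshold. Of 78 tested members, 57 were higher in BR7-BR10 and 21 lower, with a median log2 difference of 0.09, whereas 47.9% of all genes were higher, with a median of -0.02. The edgeR quasi-likelihood test called Mrps21, Mrpl18 and Mrps36, all higher in BR7-BR10, while 1.64% of all tested genes passed in either direction. DESeq2 called the same 3, while 187 of 9159 genes passed. At an unadjusted p of 0.05, 13 members were higher and 0 lower, against 6.66% and 6.05% of all genes. With a mouse left out, 5 (without BR4) to 17 (without BR10) were higher at that level, among them 7 without BR7 and 8 without BR1. The share of all genes at that level was not counted in these fits. At the adjusted threshold 74 of 9666 genes (without BR2) to 210 of 9209 (without BR10) passed in them. Set, sex, source and kit cannot be told apart here.

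Mrps21, a small-subunit protein with a bacterial counterpart, had 228, 175, 174 and 194 CPM in untreated BR1-BR4 and 330, 258, 313 and 298 CPM in untreated BR7-BR10. The groups did not overlap. The log2 difference was 0.61 with a standard error of 0.12 and an adjusted p by edgeR of 0.00548, and it stayed past the threshold with any mouse left out. After Bch the levels were 248, 179, 172 and 195 CPM in BR1-BR4 and 296, 248, 289 and 345 CPM in BR7-BR10, close to the untreated ones.

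Mrpl18, a large-subunit protein with a bacterial counterpart, had 216, 208, 238 and 203 CPM in untreated BR1-BR4 and 308, 292, 317 and 337 CPM in untreated BR7-BR10, again without overlap. The log2 difference was 0.53 with a standard error of 0.12 and an adjusted p by edgeR of 0.0119. It missed the threshold without BR2 (adjusted p by edgeR of 0.0695) and without BR4 (0.0573). After Bch it was lower in all 4 mice of BR7-BR10, at 267, 247, 270 and 308 CPM, at a log2 fold change of -0.20 ± 0.13 (standard error). The untreated values of this ratio are those that singled Mrpl18 out as high in BR7-BR10. A lower value after Bch is favoured by that choice.

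Mrps36 had 28.1, 13.2, 26.4 and 25.1 CPM in untreated BR1-BR4 and 45.2, 43.0, 40.4 and 39.4 CPM in untreated BR7-BR10, without overlap. The log2 difference was 0.84 with a standard error of 0.22 and an adjusted p by edgeR of 0.0468. It missed the threshold with technical replicate 1 alone (0.127) and without any 1 of BR2, BR3, BR4, BR7, BR8, BR9 or BR10, with adjusted p by edgeR from 0.0540 to 0.246, and the lowest value is that of untreated BR2.

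Other genes differed between the untreated sets as well. Nuclear respiratory chain and ATP synthase genes held 10 called genes of 80, all higher in BR7-BR10, with 75 of 80 positive and a median of 0.21. Cytosolic ribosomal protein genes were higher in BR7-BR10 for 73 of 86, with a median of 0.14 and 0 called, so the lean was not particular to the members. Assembly factors of the mitochondrial ribosome went the other way, with 21 of 30 lower, a median of -0.13 and 0 called. Summed stem and progenitor markers (9 genes, Lgr5 and Ascl2 among them) were 762 to 879 CPM in untreated BR1-BR4 and 558 to 667 CPM in untreated BR7-BR10, with 7 of 8 tested genes lower in BR7-BR10 at a median of -0.53 and 2 past the threshold. Summed enteroendocrine markers were 177 to 359 and 333 to 841 CPM, with 4 of 4 tested genes higher at a median of 0.88 and 0 past the threshold. Summed colonocyte markers (7 genes) were 794 to 1229 and 813 to 1698 CPM, with 5 of 5 tested genes higher in BR7-BR10 at a median of 0.96 and 1 past the threshold. Summed goblet markers (7 genes) were 4393 to 6755 and 3483 to 9066 CPM, with 6 of 7 higher at a median of 0.63 and 0 past it. Their part in the differences of the members was not tested.

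**Figure D5:**
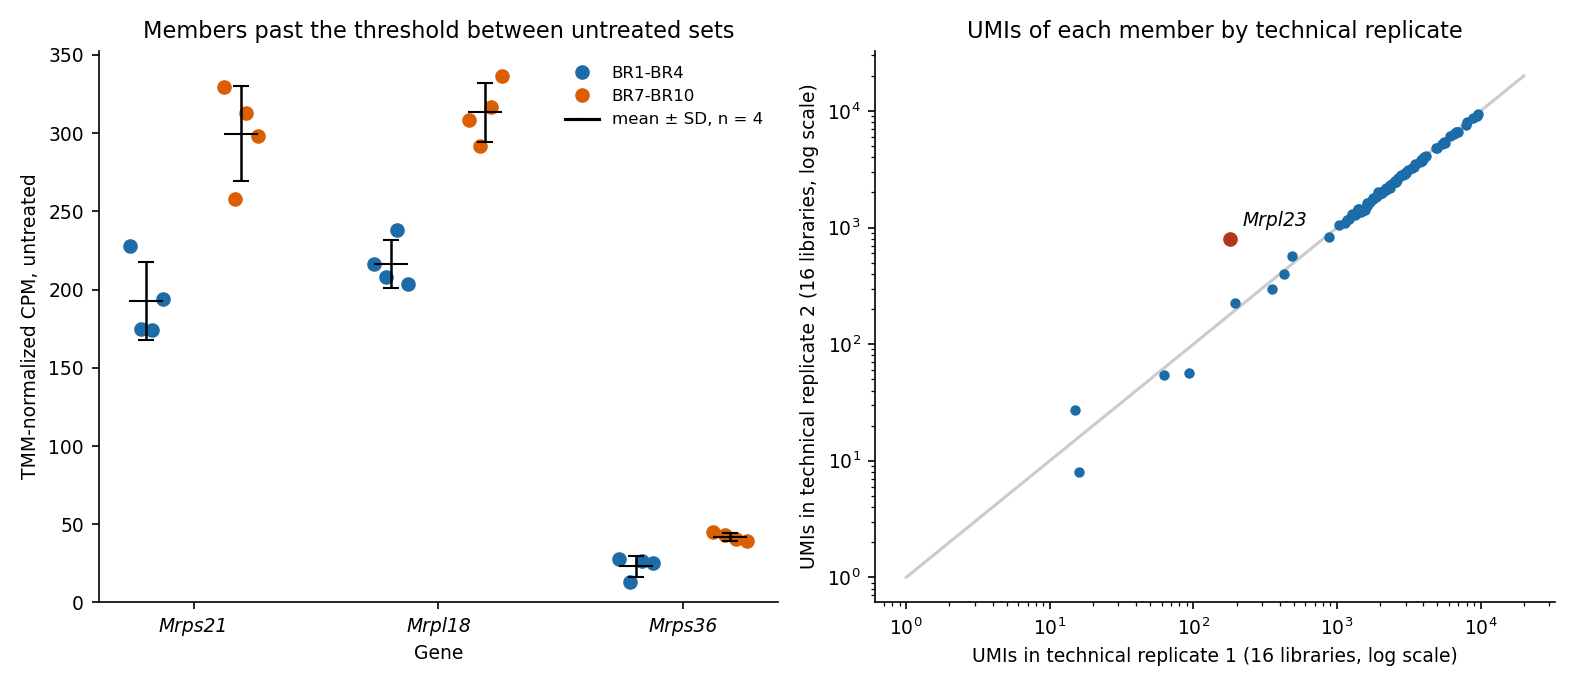
Left, TMM-normalized CPM of the 3 members past the threshold between untreated sets, with a point per mouse and the mean ± SD (n = 4). Right, total UMIs of each member with at least 1 UMI in both technical replicates, 1 against 2, on log axes with the line of equality, from which Mrpl23 (180 and 798) stands apart.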

How the data were processed

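RNA of sorted Lgr5-EGFP+ cells was measured as UMIs. The authors deposited 1 table of UMI counts, not normalized, for 23517 genes and 32 libraries, made with Drop-seq tools (version 1.0) from 65-cycle cDNA reads, on GRCm38 with GENCODE M25 genes, whereas the labels' build field reads GRCh38. For 1520 genes technical replicate 2 is blank, and blanks were read as 0. Libraries held 267146 to 2119938 UMIs. Technical replicates were summed per mouse and treatment. Genes passed filterByExpr, counts were scaled by TMM, and edgeR 4.0.16 (R 4.3.3, limma 3.58.1) fitted robust quasi-likelihood models with the mouse as a block, with Benjamini-Hochberg adjustment over all genes and a threshold of 0.05. Interaction and pooled fits used all 16 sums, and the untreated sets were compared without a block. P-values measure the spread between mice, whose samples are separate by the labels. Standard errors are the log2 fold change over the square root of F. A prior count of 2 was added for ratios within a mouse. Summed levels are CPM of all UMIs. DESeq2 1.42.0, other scalings, no filter, each technical replicate alone, no block and leaving out each mouse were the alternatives. Steps were tested on simulated counts.

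Pairs come from the labels, as an untreated and a Bch sum with 1 number are from 1 mouse. The correlations of paired deviations from group means over genes were 0.256, 0.0450, 0.0554 and 0.0993 in BR1 to BR4 and 0.0735, 0.165, -0.0019 and -0.0218 in BR7 to BR10.

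The members and lists were chosen with earlier results of these data known. Named members were, per set, the 5 in each direction with the smallest p, the 5 highest and the 5 lowest members tested in both sets, every member past the threshold and Mrpl12, Mrpl45, Mrpl58 and Mrps36 for their roles, and from each related list the 2 genes with the smallest p in each set. Other members are named where a count of them is given, after their values were seen. Positions and end sequences came from GENCODE M21, which has the same build, and promoters from RefSeq (GRCm38.p6).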

Additional observations from a re-analysis of the deposited data

Results flagged for a closer look

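In groups of 4 samples, 5 of 128 tested groups of values (the sums and the named members) held a sample far from the other 3, where chance gives about 1 in 20 groups. Mrps18b was 11.1 CPM in BR2 after Bch, below the other Bch samples of BR1-BR4. In untreated BR3, Mrpl22 was the lowest of its group at 100.4 CPM, though the group reached only to 107 CPM, and Mrpl33 was the highest at 513 CPM. Mrpl28 was 639 CPM in untreated BR7, above the other untreated samples of BR7-BR10, and Mrpl23 was 38.5 CPM in BR10 after Bch, above the others of its group.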

How the results depend on the processing

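In every comparison of Bch with untreated, and in the interaction, 0 members passed the threshold under each alternative run (DESeq2 and its size factors, no filter, each technical replicate alone, scaling without mitochondrial and ribosomal protein genes, each mouse left out). In BR1-BR4 DESeq2 gave some members no adjusted p and could not call them. Over all genes in BR1-BR4, 14 of 9509 passed with DESeq2 and 88 of 21488 without the filter. Without the replicate block, 0 members passed in BR1-BR4, in BR7-BR10, over all 8 mice and in the interaction, and the median log2 fold changes were -0.02, -0.08 and -0.05 in the first 3, so the block changed no call of a member, whereas over all genes in BR1-BR4 2 passed with it and 0 without it. Leaving out each mouse gave medians of -0.04 to 0.00 in BR1-BR4, -0.12 to -0.04 in BR7-BR10 and -0.07 to -0.03 over all 8 mice, and log2 ratios of the summed level of -0.14 to -0.09 and -0.10 to -0.06. Without the filter the BR1-BR4 median was 0.01, while that of all genes was 0.05, a difference of -0.05 as against -0.02 with the filter. Between untreated sets, 1 to 3 members passed with a mouse left out, with 1 (Mrps21) without BR2 or BR4, Mrpl33 in place of Mrps36 without BR10, and 2 with technical replicate 1 alone. In BR7-BR10, leaving out a mouse gave log2 fold changes of -0.014 to 0.20 for Mrpl55, -0.029 to 0.23 for Mrpl22 and -0.073 to 0.20 for Mrpl9, each negative in 1 case. A scale without the 5 highest members, added after seeing the data, gave log2 ratios of the summed level of -0.10 and -0.08. The cause of these changes was not tested. Depth limits the rarest members most, and the median standard errors of 0.11 in BR1-BR4 and 0.14 in BR7-BR10 limit which changes of single members could be seen.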
